A study of Arabidopsis thaliana with 8 samples.

Results

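Genes that move copper through the plant cell or set its supply were followed in Arabidopsis thaliana rosette leaves. They were taken by locus as all 10 of the 10 listed loci among 27634 rows of the deposited tables, and 9 of them passed the filter on low counts among 18155 genes tested. The groups are the wild type (WT) and DLK2-OE1, a line named for the α/β hydrolase gene DLK2 (DWARF14-LIKE 2), with 4 libraries each, and OE is not spelled out in the labels. Rosettes were 24 days old, from plants moved from half-strength medium on day 11 to soil for 13 days, and no treatment differs between the groups. The labels name a single such line and no promoter, so an effect of DLK2 cannot be told apart from other differences of that line. Nothing in them tells if a replicate is 1 plant or a pool, and p-values therefore measure the spread among these libraries alone, part of which may be technical. The genes were chosen by locus and by their role in copper handling, with the counts and FPKM of this same contrast already in view. Their fold changes and calls are therefore a description and support nothing by themselves.

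Copper is needed in leaves for plastocyanin in photosynthesis, for cytochrome c oxidase in respiration and for copper/zinc superoxide dismutases. COPT proteins bring reduced copper across membranes, small soluble chaperones carry it in the cytosol, and P-type ATPases pump it into compartments, among them the chloroplast. When copper is short, the transcription factor SPL7 binds GTAC motifs and raises uptake genes such as COPT2, the iron superoxide dismutase gene FSD1 and microRNAs that remove the messages of dispensable copper proteins.

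COPT2 stood apart among the 10, and its upstream sequence is printed because it carries more GTAC than that of the other members. The COPT1 and COPT6 sequences are those of the other importers of the plasma membrane and serve for contrast. Each runs over the 250 bases before the annotated transcript start, 5′ to 3′ on the gene's strand, from the RefSeq sequence of TAIR10.1, with GTAC in capitals.
COPT2 (plus strand, chr3:17268625-17268874): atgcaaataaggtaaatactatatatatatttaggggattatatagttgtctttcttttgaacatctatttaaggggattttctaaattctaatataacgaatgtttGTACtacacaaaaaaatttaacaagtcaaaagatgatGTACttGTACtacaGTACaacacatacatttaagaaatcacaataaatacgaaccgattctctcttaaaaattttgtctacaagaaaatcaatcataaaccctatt
COPT1 (minus strand, chr5:23834746-23834995): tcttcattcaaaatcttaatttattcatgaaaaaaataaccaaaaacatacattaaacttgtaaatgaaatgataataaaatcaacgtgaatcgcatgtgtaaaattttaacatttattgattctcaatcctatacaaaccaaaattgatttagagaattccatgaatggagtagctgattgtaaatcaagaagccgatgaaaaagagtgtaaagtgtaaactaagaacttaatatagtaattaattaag
COPT6 (plus strand, chr2:11512477-11512726): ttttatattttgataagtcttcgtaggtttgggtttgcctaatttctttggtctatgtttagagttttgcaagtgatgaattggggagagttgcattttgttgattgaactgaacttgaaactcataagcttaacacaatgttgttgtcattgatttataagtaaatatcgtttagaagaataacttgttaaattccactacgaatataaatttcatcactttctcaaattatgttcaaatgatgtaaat
The motif GTAC reads the same on both strands, and no other motif was searched. COPT2 holds 4 copies, at 143, 106, 100 and 92 bases before the transcript start. Of 26710 promoters of the same length, 34.4% hold at least 1 copy, 1.43% at least 3 and 0.277% at least 4. CCH and PAA1 hold 1 copy each, and the other 7 members hold none in this window. The window matters for COPT2, whose gene feature begins 175 bases before its annotated transcript with no exon there. In the 250 bases before that feature COPT2 holds 0 copies. A match is no evidence of binding, and its absence here says nothing of SPL7.

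As a check of the labels, DLK2 was at 73.1 ± 10.1 CPM in WT and 138 ± 13.2 CPM in DLK2-OE1 (TMM-normalized CPM, counts scaled to library size; SD, n = 4 each). All 4 DLK2-OE1 libraries were above all WT libraries, with a log2 fold change of 0.92 (SE 0.12; edgeR's adjusted p = 0.0178). That call was lost without WT replicate 1, WT replicate 3 or DLK2-OE1 replicate 1 (adjusted p from 0.0548 to 0.0670). Library totals ran from 18097159 to 22139801 counts. DLK2-OE1 replicates 1 and 2 stood apart on the first principal component, which held 60.3% of the variance, at 61.5 and 87.4 against 11.2 and -8.2 for replicates 3 and 4 and at most -27.7 for WT. The leaf label held, with 5 mesophyll markers summing to 46306 to 62402 CPM in WT and 28299 to 57532 CPM in DLK2-OE1. Sums for 5 xylem markers ran from 19.0 to 50.8 CPM in WT and from 56.4 to 231 CPM in DLK2-OE1, and for 5 markers of dividing cells from 4.89 to 7.02 and from 10.2 to 35.1 CPM. The 4 shoot apex markers summed to 0 to 1.08 CPM in WT and 6.06 to 50.6 CPM in DLK2-OE1. Among them CLV3 was at 0 in all libraries and WUS had 1 count in each group, so neither was tested. These sums are thus almost all STM and KNAT1. By edgeR 3 of the 5 xylem markers, 3 of the 5 of dividing cells and the apex markers STM and KNAT1 were called higher, and 0 of the mesophyll or phloem markers were called, with 1 and 2 of them at an unadjusted p under 0.05. The 5 phloem markers summed to 397 to 529 CPM in WT and 256 to 441 CPM in DLK2-OE1, while SEOR1 among them went the other way, with 22.6 to 30.0 CPM in WT and 31.4 to 50.7 CPM in DLK2-OE1 (edgeR's adjusted p = 0.0605). The 4 pollen markers summed to at most 0.268 CPM in any library. In bulk leaves, fewer cells of a type and less RNA per cell cannot be told apart, and the part of these markers in the results that follow was not tested.

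The 10 genes had widely different levels in leaves. On the authors' FPKM scale, which divides by a transcript length, CCH was highest in WT at 197 ± 37.5 (SD, n = 4), above 97.5% of the genes tested. Lengths implied by these values differed from the annotated ones for some members. They were 784 against 1253 bases for COPT1 and 693 against 969 for COPT6, so the order of the genes is approximate. CCH is a cytosolic copper chaperone with a plant-specific tail. Its paralog ATX1 (72.1 ± 11.7 FPKM), the importer gene COPT1 (71.1 ± 7.77), the chloroplast ATPase gene PAA2 (61.7 ± 3.58) and COPT5 (60.8 ± 7.0) followed and did not differ from their neighbours beyond their spread. COPT6 (42.2 ± 4.79 FPKM) and PAA1 (39.6 ± 4.91) formed the next pair, also within their spread. COPT2 (6.74 ± 1.27 FPKM) and the regulator gene SPL7 (5.93 ± 0.171) were several times lower and within their spread of each other. CITF1 was near the limit of detection at 0.281 ± 0.124 FPKM.

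**Figure D1:**
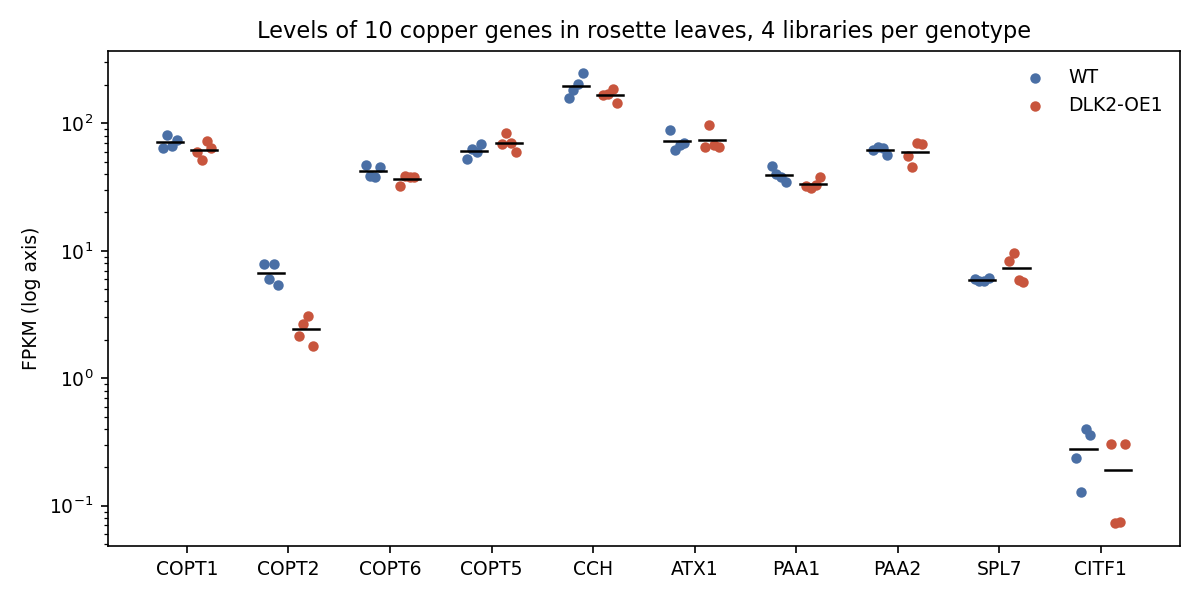
FPKM (log axis) of the 10 copper genes in each library, with WT in blue, DLK2-OE1 in red and a bar at each group mean. CCH is highest and CITF1 lowest in both genotypes, and COPT2 is the gene whose groups separate, at 6.74 FPKM in WT and 2.42 FPKM in DLK2-OE1.

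Among the importers, COPT2 was lower in DLK2-OE1 and COPT1 and COPT6 did not pass. COPT2 (AT3G46900, chromosome 3, 17268700 to 17269510 in TAIR10.1, 1 exon) encodes a plasma membrane transporter known to be raised by copper shortage. WT replicates gave counts of 90, 84, 106 and 67 for it, and those of DLK2-OE1 gave 25, 33, 37 and 21, here and below in the order of their replicate numbers. As CPM these were 5.31, 4.13, 5.27 and 3.42 CPM in WT and 1.25, 1.42, 1.98 and 1.18 CPM in DLK2-OE1. Every DLK2-OE1 library lay below every WT library. Replicate 3 was the highest and replicate 4 the lowest of the DLK2-OE1 libraries, so the difference was not limited to replicates 1 and 2. The means were 4.53 ± 0.921 and 1.46 ± 0.363 CPM (SD, n = 4 each), a 3.10-fold lower level in DLK2-OE1. Fitted over all genes, this is a log2 fold change of -1.63 with an SE of 0.24 (edgeR's quasi-likelihood test, Benjamini-Hochberg adjusted p = 0.0195). COPT2 stood at rank 72 of 18155 genes by p. It was the 1 call among 9 tested members, where 3.69% of all genes were called, 1.58% lower and 2.12% higher. It was also the 1 member whose groups did not overlap, where 15.2% of all genes did not (7.29% lower and 7.87% higher) in DLK2-OE1. By edgeR 4 of the 9, COPT2, COPT6, CCH and PAA1, were at an unadjusted p under 0.05, against 26.3% of all genes. Since the contrast was known when the list was drawn up, nothing is read from these counts. The call was lost without WT replicate 1 (adjusted p = 0.0720), WT replicate 3 (0.0893) or DLK2-OE1 replicate 1 (0.0747), and without DLK2-OE1 replicates 1 and 2 together (0.0860), at log2 fold changes from -1.57 to -1.50. Over the omissions of single libraries the adjusted p ran from 0.0159 to 0.0893.

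COPT1 (AT5G59030, chromosome 5, 23833493 to 23834745), the importer gene best known from roots and pollen, gave 53.3, 68.8, 54.9 and 58.2 CPM in WT and 43.0, 33.4, 57.4 and 52.4 CPM in DLK2-OE1. The groups overlapped, with DLK2-OE1 replicates 1 and 2 below all other libraries and replicates 3 and 4 inside or near the WT range. Its log2 fold change was -0.34 (SE 0.17, edgeR adjusted p = 0.227). COPT6 (AT2G26975, chromosome 2, 11512727 to 11513695), a shoot importer gene, gave 34.8, 29.0, 27.6 and 31.6 CPM in WT and 20.7, 22.1, 26.7 and 27.7 CPM in DLK2-OE1. Here too DLK2-OE1 replicates 1 and 2 were the lowest, and replicate 4 reached into the WT range. The log2 fold change was -0.34 (SE 0.12, edgeR adjusted p = 0.120). The coding sequence of COPT2 is 79.0% identical to that of COPT1 and 81.7% to that of COPT6, over 471 and 437 aligned bases. The longest exact run shared with COPT1 is 30 bases and with COPT6 16 bases. How reads that fit more than 1 of them were assigned is not stated by the submitters.

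COPT5 (AT5G20650, chromosome 5, 6985298 to 6986037) encodes the COPT protein that releases copper from the vacuole and prevacuole. It gave 41.2, 50.7, 46.4 and 51.1 CPM in WT and 46.6, 51.3, 52.8 and 46.3 CPM in DLK2-OE1. The groups overlapped almost fully, and the log2 fold change was 0.06 (SE 0.09, edgeR adjusted p = 0.737). In the annotation COPT5 overlaps AT5G20640 and a long non-coding RNA, and as no strand setting is stated, its counts may include reads of these.

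**Figure D2:**
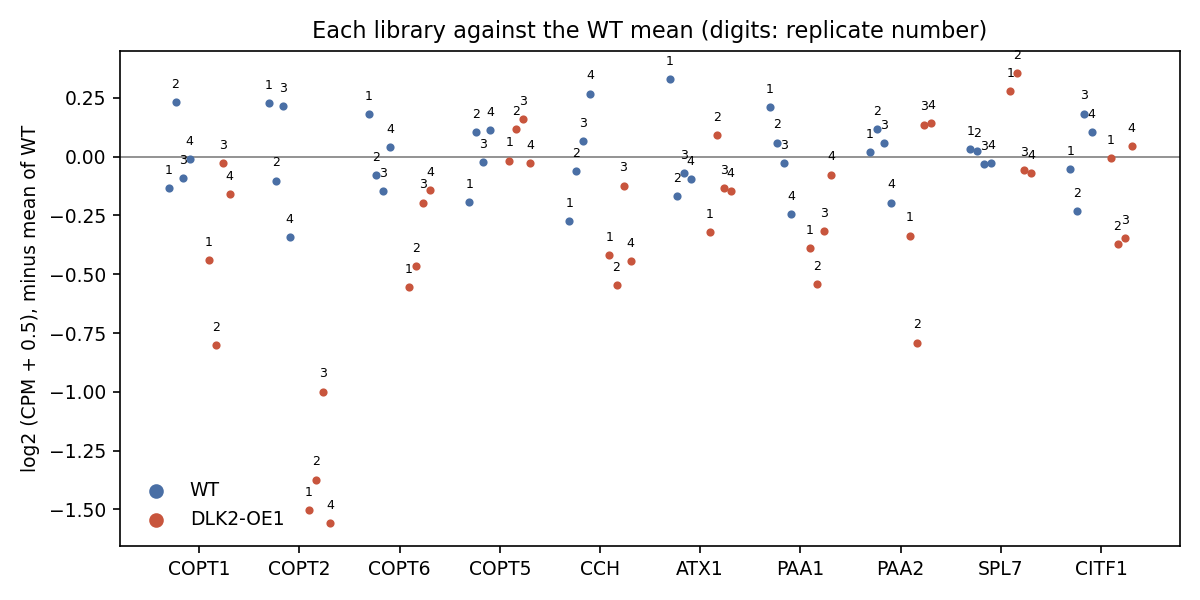
Each library's log2 (CPM + 0.5) minus the WT mean for the 10 genes, with WT in blue, DLK2-OE1 in red and digits giving the replicate number. COPT2 lies lower in all 4 DLK2-OE1 libraries, while COPT1, COPT6, PAA2 and SPL7 move mainly in replicates 1 and 2.

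Neither cytosolic chaperone gene passed. CCH (AT3G56240, chromosome 3, 20863139 to 20864727) gave 121, 140, 153 and 176 CPM in WT and 109, 99.6, 134 and 107 CPM in DLK2-OE1. In DLK2-OE1, 3 libraries were below all WT libraries and replicate 3 was not, and the log2 fold change was -0.39 (SE 0.14, edgeR adjusted p = 0.127). ATX1 (AT1G66240, chromosome 1, 24686114 to 24687417), which hands copper to P-type ATPases, gave 48.8, 34.4, 36.9 and 36.3 CPM in WT and 30.9, 41.4, 35.3 and 35.0 CPM in DLK2-OE1. Replicate 1 was the highest WT library and the lowest DLK2-OE1 library, and the log2 fold change was -0.13 (SE 0.13, edgeR adjusted p = 0.553). The ratio of FPKM means turned this sign, with 72.1 ± 11.7 in WT and 73.5 ± 15.5 in DLK2-OE1 (SD, n = 4 each). On the FPKM scale the median of all genes itself lies 0.12 higher in log2. The coding sequences of CCH and ATX1 are 80.1% identical over 231 aligned bases, with no exact run over 13 bases.

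Nor did the ATPases that pass copper across the chloroplast envelope (PAA1) and into thylakoids (PAA2). PAA1 (AT4G33520, chromosome 4, 16118830 to 16126151) gave 63.3, 57.0, 53.7 and 46.1 CPM in WT and 41.7, 37.4, 43.9 and 51.8 CPM in DLK2-OE1. In DLK2-OE1, 3 libraries lay below the WT range, and the log2 fold change was -0.33 (SE 0.13, edgeR adjusted p = 0.145). PAA2 (AT5G21930, chromosome 5, 7243002 to 7249170) gave 194, 207, 199 and 167 CPM in WT and 151, 110, 210 and 211 CPM in DLK2-OE1. Replicates 1 and 2 were below all WT libraries and replicates 3 and 4 above them all, so the coefficient of variation was 28.7% in DLK2-OE1 and 9.12% in WT. The log2 fold change was -0.17 (SE 0.20, edgeR adjusted p = 0.628), and 0.15 without DLK2-OE1 replicates 1 and 2. In the same libraries the summed mesophyll markers were also lowest in replicate 2, at 28299 CPM, and their part in the PAA2 value was not tested. PAA2 overlaps AT5G21940 in the annotation, so shared reads are possible.

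PAA1 differed from the other members in a measure computed from the same counts and FPKM, so this too is a description. Count, FPKM and library total together imply the transcript length by which each FPKM was divided. For COPT2 and COPT5 this came to 636 and 740 bases in every library, the lengths of their annotated transcripts. The implied lengths of COPT1, COPT6, CCH and CITF1 did not match theirs. For PAA1 the implied length was 1288, 1307, 1334 and 1337 bases in WT and 1408, 1452, 1316 and 1306 bases in DLK2-OE1. TAIR10.1 gives PAA1 a pair of long transcripts of 3315 and 3248 bases with 17 exons, which encode the whole ATPase of 949 residues. It also gives a pair of short ones of 1160 and 1359 bases with 5 exons, which end early and encode 237 and 236 residues. The short form is known as PCH1, a copper chaperone of the chloroplast stroma. In every library the implied length was closer to those of the short transcripts than to those of the long ones. Among 9592 genes with over 200 counts in each library, PAA1 ranked 17 by the range of implied length over libraries, 12.8%, where 92.5% of genes stayed within 1%. The highest values, 1408 and 1452 bases, were from DLK2-OE1 replicates 1 and 2. The means of 1317 ± 23.6 bases in WT and 1371 ± 71.1 in DLK2-OE1 (SD, n = 4 each) differed by 54.1 bases, which did not pass an exact two-sided permutation test (p = 0.286, where the smallest possible is 0.0286). This check was added after the data had been seen. The lengths behind the deposited FPKM need not be those of TAIR10.1, since COPT1 implied 784 bases against 1253 annotated and COPT6 693 against 969. In WT, CCH (711 against 763 to 1098) and CITF1 (705 against 1388 to 2708) also implied less than their shortest transcript. SPL7, ATX1 and PAA2 lay within their annotated range. The nearness of PAA1 to its short transcripts therefore does not show which form was present. The deposited counts are per locus, so the chaperone and ATPase messages cannot be told apart.

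**Figure D3:**
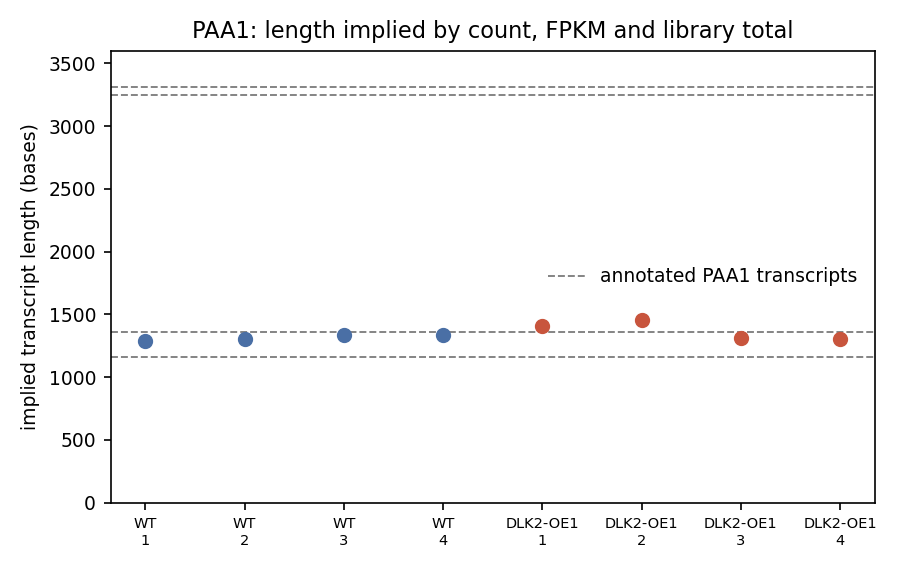
Transcript length in bases implied for PAA1 by count, FPKM and library total in each of the 8 libraries, with WT in blue and DLK2-OE1 in red and the 4 annotated transcript lengths as dashed lines. All points lie between 1288 and 1452 bases, near the short transcripts.

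Of the regulators, SPL7 (AT5G18830, chromosome 5, 6275895 to 6280681), the central activator of the copper shortage response, was steady in WT and split in DLK2-OE1. It gave 18.8, 18.7, 18.0 and 18.0 CPM in WT, a coefficient of variation of 2.41%. In DLK2-OE1 it gave 22.4, 23.6, 17.6 and 17.5 CPM. Replicates 1 and 2 lay above the WT range and replicates 3 and 4 just below it. With 329 and 310 counts in replicates 3 and 4, that small gap is not read as a difference. The log2 fold change was 0.14 (SE 0.12, edgeR adjusted p = 0.453). Without replicates 1 and 2 the log2 fold change was -0.05. CITF1 (AT1G71200, chromosome 1, 26835200 to 26837991), a bHLH factor of copper uptake known for its part in anthers and for a link to jasmonate, gave 3, 2, 6 and 5 counts in WT and 4, 1, 1 and 4 in DLK2-OE1. With 1 to 6 counts per library it did not pass the filter, and a difference was not detectable at this depth. With no filter its log2 fold change was -0.68 (SE 0.69, edgeR adjusted p = 0.557).

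Over the 9 tested members the median log2 fold change was -0.33 and 7 were negative, against a median of 0.00 and 49.5% negative among all genes tested. DLK2-OE1 replicate 2 held the lowest of the 8 values for 4 of these 9 genes, namely COPT1, CCH, PAA1 and PAA2. WT replicate 1 held the highest value for 4, namely COPT2, COPT6, ATX1 and PAA1.

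The wider copper pathway was read from 52 other loci, of which 46 are in the tables and 39 were tested. By edgeR 4 were higher in DLK2-OE1 and 0 lower, which is 10.3% of those tested against 3.69% of all genes, with a median log2 fold change of -0.13. Groups did not overlap for 7 of the 39, or 17.9%, near the 15.2% of all genes. At an unadjusted p under 0.05 there were 17 of 39, or 43.6%, against 26.3% of all genes. DESeq2 tested 45 of the list and called 13, or 28.9%, against 12.4% of the 22677 genes it tested. The list was drawn up with earlier results of these data known, so nothing is read from these shares. The 4 called by edgeR were CCS, CSD1, CSD2 and LAC12. CCS loads copper onto the copper/zinc superoxide dismutases CSD1 of the cytosol and CSD2 of the chloroplast, and all 3 messages are known targets of the microRNA miR398, which SPL7 raises when copper is short. CCS rose from 24.4 ± 3.85 to 57.5 ± 12.0 CPM (edgeR adjusted p = 0.0178), CSD1 from 51.3 ± 13.7 to 153 ± 60.9 CPM (0.0321) and CSD2 from 34.3 ± 12.1 to 169 ± 60.4 CPM (0.0178), with SD and 4 libraries a group. FSD1, which replaces these enzymes in copper shortage, gave 1063, 778, 936 and 547 CPM in WT and 398, 314, 535 and 463 CPM in DLK2-OE1. It just missed by edgeR (log2 fold change -0.96, SE 0.24, adjusted p = 0.0551) and passed with DESeq2 (adjusted p = 0.00146). The FSD1 adjusted p was 0.0757 with limma-voom and 0.0968 with edgeR under the replicate block. With DLK2-OE1 replicates 1 and 2 left out, edgeR gave FSD1 0.251, at a log2 fold change of -0.73. Over single omissions its edgeR adjusted p ran from 0.0414 to 0.164. COPT2 and FSD1, which SPL7 is known to activate, were below the lowest WT value in each of the 4 DLK2-OE1 libraries, while CCS, CSD1 and CSD2 were above the highest. This split was not common to the copper genes followed here. The groups overlapped for COPT1 and CCH, and for YSL2 and FRO4, which are also known to answer copper shortage. A part of SPL7 was not tested. With DLK2-OE1 replicates 1 and 2 left out, CCS still passed (adjusted p = 0.0469) and CSD1 (0.0892) and CSD2 (0.0840) did not, at log2 fold changes of 0.98, 1.06 and 1.88. All 3 calls were lost without WT replicate 1, WT replicate 3 or DLK2-OE1 replicate 1, at adjusted p from 0.0617 to 0.133, and CSD1 also without WT replicate 2 (0.0826) and under the replicate block (0.0727).

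**Figure D4:**
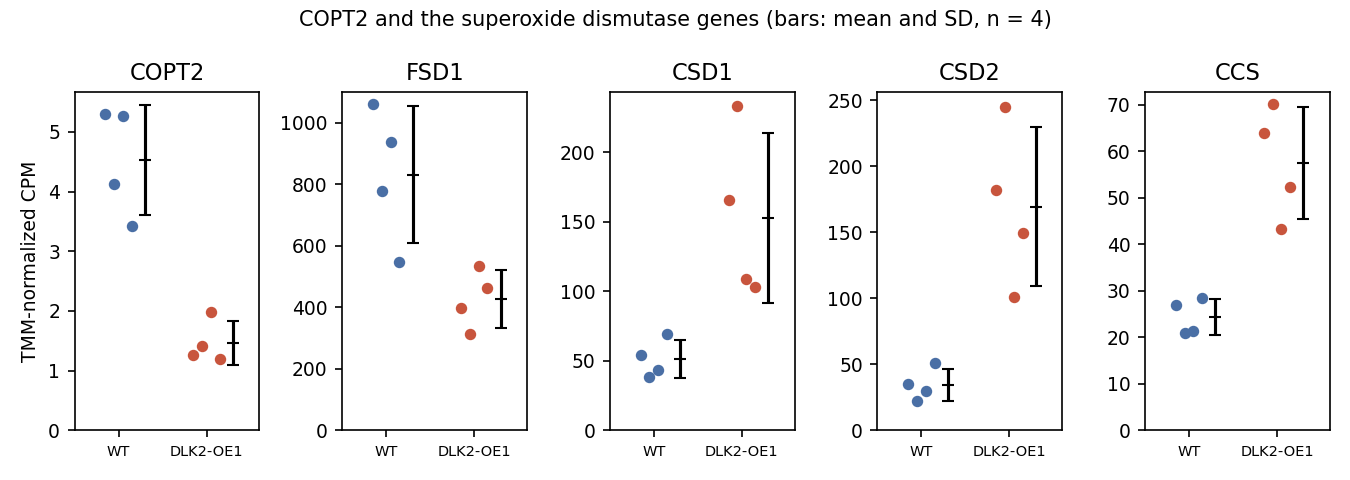
TMM-normalized CPM of COPT2, FSD1, CSD1, CSD2 and CCS in each library, WT in blue and DLK2-OE1 in red, with mean and SD (n = 4) beside the points and axes from 0. COPT2 and FSD1 are lower and the other 3 genes higher in all DLK2-OE1 libraries.

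LAC12, a laccase gene, gave 0, 4, 0 and 6 counts in WT and 34, 166, 16 and 23 in DLK2-OE1 (edgeR adjusted p = 0.0487), with its highest level in replicate 2, where the xylem markers also peaked at 231 CPM. Its call was lost in 6 of the 8 omissions of a single library, at adjusted p up to 0.149, and also with limma-voom (0.0774), under the replicate block (0.0581) and without DLK2-OE1 replicates 1 and 2 together (0.182).

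Other genes known to answer copper shortage did not pass. YSL2, a metal-nicotianamine transporter gene, was at -0.67 in log2 fold change (SE 0.21, edgeR adjusted p = 0.0975, DESeq2 0.0433). FRO4, a metal reductase gene that works with COPT2 in roots, had -0.58 (SE 0.36, adjusted p = 0.335). ZIP2, a metal transporter gene, gave 0, 6, 2 and 12 counts in WT and 0, 0, 1 and 0 in DLK2-OE1. FRO5, another metal reductase gene, gave 0 in all WT libraries and at most 1 in DLK2-OE1. Neither ZIP2 nor FRO5 passed the filter on low counts. With no filter their edgeR adjusted p was 0.119 and 0.371, and DESeq2 gave ZIP2 0.106. The ATPase genes RAN1, which supplies ethylene receptors, and HMA5, which detoxifies copper in roots, had log2 fold changes of 0.22 (SE 0.15, adjusted p = 0.362) and 0.18 (SE 0.34, adjusted p = 0.762). Of 11 tested genes of other copper transport 0 were called by edgeR, with 5 at an unadjusted p under 0.05, and of 4 tested metallothionein genes 0, with 1. Over all genes 3.69% were called and 26.3% were at an unadjusted p under 0.05.

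Among 56 copper genes with an annotated coding transcript, 7 or 12.5% hold at least 3 GTAC in the 250 bases before it, against 1.43% of all promoters. These are COPT2, COPT3, RAN1, ZIP2, YSL2, FRO6 and FRO7, all of them transport or reductase genes. Of these COPT2 passed the test, YSL2, RAN1, FRO6 and FRO7 did not, and COPT3 and ZIP2 did not pass the filter on low counts. FRO6, a leaf metal reductase gene, had a log2 fold change of -0.63 (SE 0.31, edgeR's adjusted p = 0.228), with overlapping groups and its lowest value in DLK2-OE1 replicate 2. FRO7, which reduces iron at the chloroplast, was at -0.68 (SE 0.25, adjusted p = 0.127). All its DLK2-OE1 libraries were below all WT libraries, as in 7.29% of all genes, and replicate 2 was lowest at 63.9 CPM. At least 1 copy is held by 21 of the 56, or 37.5%, against 34.4% of all promoters, so the shares lie close at that limit. The list includes genes known to answer copper shortage, and the motif check was added after the data had been seen. Nothing is therefore read from the share with at least 3. In the window before its gene feature COPT2 holds 0 copies. Among the 4 genes called higher, CSD1 holds 2 copies, CCS 1, and CSD2 and LAC12 hold none.

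**Figure D5:**
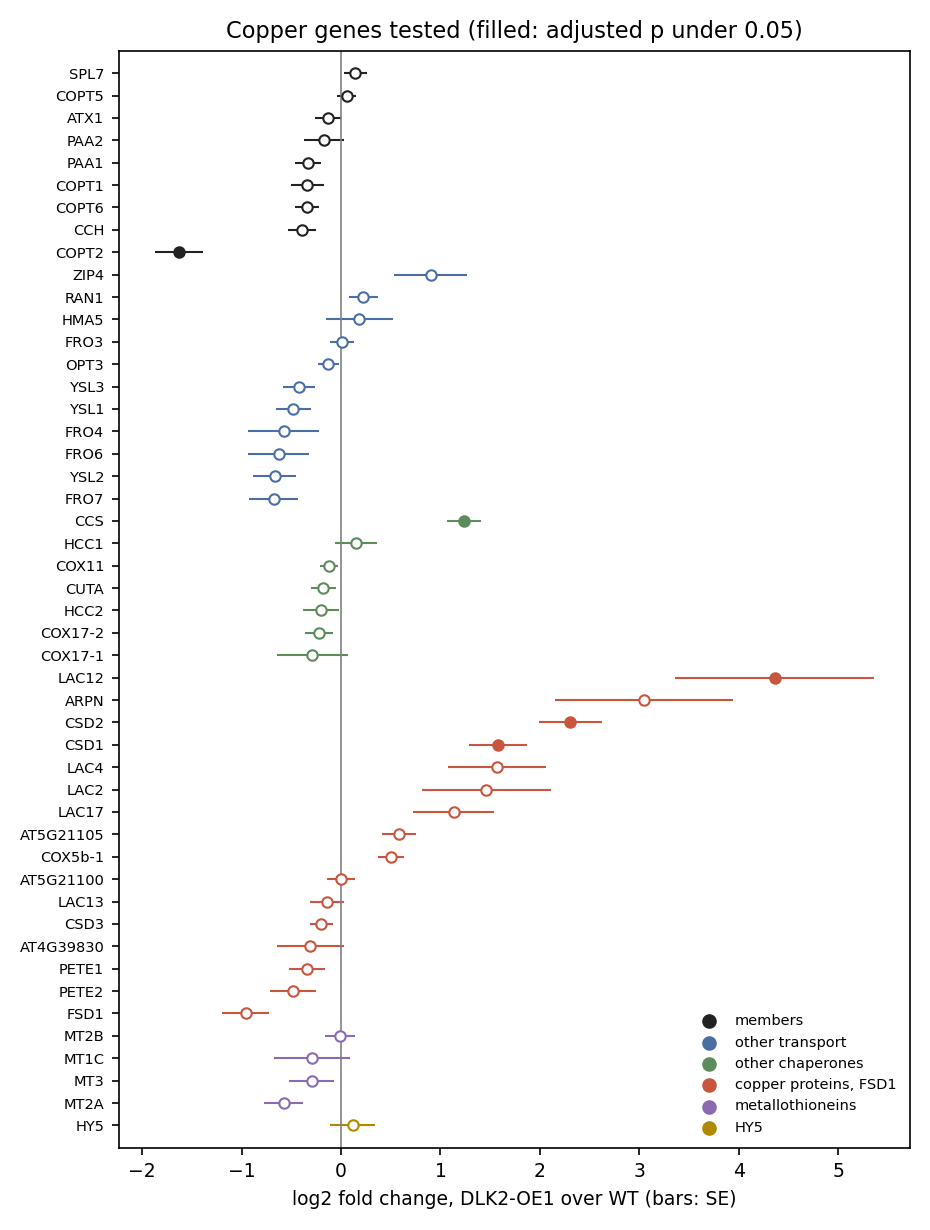
Log2 fold change (DLK2-OE1 over WT) with its SE for the 9 tested members and the 39 tested genes of the wider list, coloured by list, filled where the edgeR adjusted p is under 0.05. COPT2 is the filled point on the lower side, and CCS, CSD1, CSD2 and LAC12 are filled on the higher side.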

How the data were processed

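Per the labels' protocols, libraries were made from poly(A)-selected leaf RNA with a NEBNext Ultra kit. Tools in the submitters' processing notes are RSEM, HISAT2, edgeR, DESeq2, StringTie 1.3.1, Bowtie2 2.2.8 and fastp 0.18.0, without roles, and the build is TAIR10. The authors deposited counts (whole numbers) and FPKM for each gene in every library, per the file headers. Strand setting, annotation release and any rounding of counts: not given in the sources used here.

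Counts were fitted in R 4.3.3 with edgeR 4.0.16 (filterByExpr, TMM, robust quasi-likelihood test), p adjusted by Benjamini-Hochberg across 18155 genes, threshold 0.05. CPM is TMM-normalized, and the SE is the log2 fold change over the square root of F. Alternatives were DESeq2 1.42.0, limma-voom and limma-trend (limma 3.58.1, the latter on log2 of FPKM plus 1 or 0.1 for genes at 1 FPKM or more in 4 libraries), size factors of DESeq2 in edgeR, no filter or a minimum of 10 counts in 4 libraries, a replicate block and omission of libraries. The fit was tested on simulated data. The motif and implied-length checks were added after the data had been seen. Implied length is count divided by FPKM and library total. Locus names, coordinates and sequence come from TAIR10.1, which is not the named build, and the deposited tables hold no coordinates. Of 27634 rows, 26719 matched its locus tags. The members and lists were chosen with earlier results of these data known. Named genes are the members, DLK2, wider-list genes past the threshold, and FSD1, CSD1, CSD2, CCS, ZIP2, YSL2, FRO4, FRO5, RAN1 and HMA5. FRO6, FRO7 and COPT3 were named after their promoters had been read. The microRNA loci of the list are not analysed here.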

Additional observations from a re-analysis of the deposited data

Results flagged for a closer look

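Of 46 groups of 4 libraries examined, 2 held a library far from the other 3, and chance gives about 1 in 20. ZIP2 was at 0.0536 CPM in DLK2-OE1 replicate 3, which is 1 count, with the other 3 libraries at 0. A lone count beside libraries at 0 is always marked by this rule, so that rate does not hold for ZIP2. LAC12 was at 7.12 CPM in DLK2-OE1 replicate 2, far above the other DLK2-OE1 libraries.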

How the results depend on the processing

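The number of all genes called by edgeR, 670, became 2823 with DESeq2, 265 with limma-voom, 288 and 355 with limma-trend on log2 FPKM (pseudocounts 1 and 0.1) and 60 without DLK2-OE1 replicates 1 and 2 together. It ran from 0 to 2191 when single libraries were left out, the 0 being without WT replicate 3, where 3599 genes had an unadjusted p under 0.05. The count of members called, 1, stayed at 1 except without DLK2-OE1 replicates 1 and 2 together (0, with 1 at an unadjusted p under 0.05) and in the omissions of single libraries, where it ran from 0 to 1. The wider list's 4 calls became 13 with DESeq2 and 1 without those replicates together, and ran from 0 to 11 over single omissions. The cause was not tested. COPT2 kept its direction in all 17 alternatives, with log2 fold changes from -1.81 to -1.18, but its groups do not overlap, so this is no sign of stability. Signs turned for COPT5 without WT replicate 1 (-0.0076, the omissions running up to 0.087), for SPL7 (-0.054) and PAA2 (0.15) without DLK2-OE1 replicates 1 and 2 together, and for ATX1 with both limma-trend fits (0.021 and 0.021).

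Deviations of same-numbered libraries had correlations from -0.0951 to 0.123, and 1 of 8 libraries correlated best with its own number. The labels do not say if a number marks a shared batch, and these few values cannot settle it. With the replicate block, 245 genes, 1 member and 2 genes of the wider list were called, with COPT2 at a log2 fold change of -1.63 (edgeR adjusted p = 0.0382).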
